A study of Mus musculus with 9 samples.

Results

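The long coding sequences described here are the rows of a table of crosslink counts over coding sequence (CDS, the part of an mRNA that is translated) whose gene has a CDS above 5000 bases and at least 1 count in any library. Of 22442 CDS in the table, 801 were above that length, which was 3.57% of the rows and 16.9% of the bases. A count was found for 602 of these, which are the members, and none for the other 199. The members made up 5.19% of the 11601 CDS with a count and 20.2% of their bases. Their median length was 6463.5 bases, against 1434 bases for the other counted CDS, and the longest spanned 112585 bases. The deposited tables name 525 of the members, and the other 77 are counted without a name.

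The counts come from individual-nucleotide crosslinking and immunoprecipitation (iCLIP), in which ultraviolet light fixes a protein to the RNA it touches and the RNA recovered with the protein is sequenced. The cells were N2a, a mouse neuroblastoma line, carrying Flp-In and rtTA so that doxycycline switches on 1 integrated cDNA, here FLAG-tagged Chtop with exon 5 or FLAG-tagged Chtop without exon 5. Each isoform has 3 libraries labelled as biological replicates, purified with an anti-FLAG antibody after 24 h of doxycycline at 2 µg/mL and crosslinking at 254 nm and 0.15 J/cm2. The controls are 3 size-matched inputs, cut from the same gel range without purification, from 2% of the lysate. Each input is of another line: FLAG-Chtop lacking exon 5 for the replicate labelled 1, FLAG-Chtop that has it for replicate 2 and FLAG-GFP for replicate 3, so they are not replicates of 1 line. The tagged protein was made from a cDNA in cells that are not labelled as lacking their own Chtop, and all groups received doxycycline and ultraviolet light. The study compared the RNA recovered with the isoforms, each against the inputs.

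Chtop (chromatin target of Prmt1) is a nuclear RNA-binding protein with a central stretch rich in arginine and glycine that arginine methyltransferases modify. It works with the TREX complex, which couples transcription and processing of mRNA to its export through the nuclear pore, where Chtop helps hand the mRNA to the export receptor Nxf1. Long coding sequences belong to very large proteins such as cytoskeletal linkers, chromatin modifiers, giant ubiquitin ligases and ion channels, many of which are used by neurons. A longer sequence offers more bases to crosslink, so a raw count grows with length, and levels are therefore given per kilobase.

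CDS totals were 416001 to 1270224 counts in the 6 isoform libraries and 34296 to 81283 in the inputs, so the inputs were the shallower group throughout. CDS held 66.1% to 68.8% of the counts of all gene parts with the isoforms and 45.4% to 47.6% in the inputs. Of the neuroblastoma markers, 14 of 20 were named in the tables and none of those was at 0 when summed over the 9 libraries. Some were at 0 in single libraries, and Dbh (8 counts) and Nefl (3 counts) were counted in 1 library alone. All 5 hepatocyte markers were at 0 in all 9 libraries. Of the muscle markers 3 of 6 were named, with a summed level, over all gene parts, of 40.8 to 167 counts per 1000000 counts with the isoforms and 0 to 17.3 in the inputs. The fibroblast markers, 7 of 7 named and 3 of them at 0, summed to 0 to 9.76 with the isoforms and 0 to 132 in the inputs, where Col1a1 had 10 counts in input replicate 3. The part of these markers in the results was not tested, and 1 of the muscle markers, Myh3, is a member. Myh3 made up nearly all of the muscle sum with the isoforms. It had 31 to 293 counts in those libraries, where Ckm had at most 5 and Des at most 13. In such bulk samples more cells of a kind and more RNA in each cannot be told apart. Median counts per CDS, summed over the 9 libraries, were 1446.5 for members and 89 for other counted CDS.

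Long coding sequences held a larger part of the CDS counts with either Chtop isoform than in the inputs, and more counts per base. The members' share of CDS counts was 35.0%, 37.8% and 37.6% in the libraries with exon 5 and 34.4%, 36.1% and 35.8% in those without it. It was 19.6%, 18.5% and 21.9% in the inputs, where the share lies close to the members' 20.2% of the counted bases. The mean was 36.8% ± 1.59 (SD, n = 3) with exon 5, 35.4% ± 0.879 (n = 3) without it and 20.0% ± 1.69 (n = 3) in the inputs. No isoform library overlapped the inputs. The 10 members with the most counts held 5.71% ± 0.794 and 5.67% ± 0.535 of CDS counts with the isoforms and 2.69% ± 0.507 in the inputs. Without them the members had a share of 33.0% of CDS counts with exon 5, 31.6% without it and 17.8% in the inputs.

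Per kilobase and per 1000000 CDS counts, the unit of every level below, the members summed to 75.6, 81.7 and 81.3 with exon 5, to 74.4, 77.9 and 77.4 without it, and to 42.4, 40.1 and 47.2 in the inputs. All other counted CDS summed to 34.0 to 35.6, 35.0 to 35.9 and 42.8 to 44.6 in the same groups. Members over others gives a ratio within each library that no scaling between libraries can change. This ratio was 2.30 ± 0.155 (SD, n = 3) with exon 5, 2.17 ± 0.0826 (n = 3) without it and 0.988 ± 0.105 (n = 3) in the inputs. Its lowest value with an isoform was 2.07 and its highest in an input was 1.10. Summed over CDS counted in any library, a base of long CDS was thus counted about as often as a base of other CDS in the inputs. It was counted more often in each of the 6 isoform libraries. Single inputs had a count for 39.4% to 73.4% of the members and for 11.7% to 39.5% of those other CDS. The input value depends on this choice, and a ratio of medians, given further below, is lower. With 3 libraries in each group an exact permutation test cannot go below p = 0.1, so none is given.

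**Figure D1:**
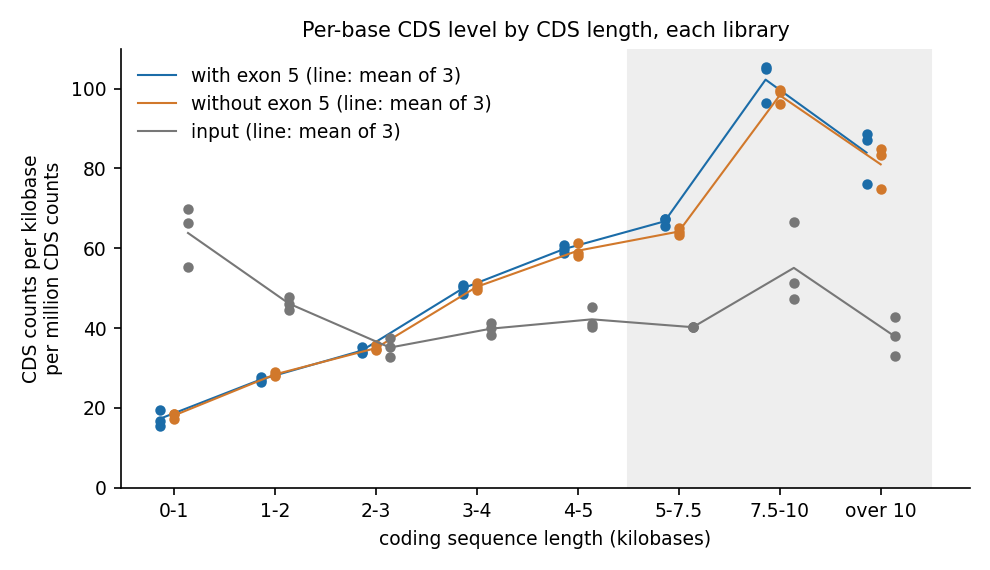
CDS counts per kilobase per 1000000 CDS counts (y axis) for CDS in 8 classes of length in kilobases (x axis); points are libraries, lines are means of 3, and the shaded classes hold the members. The isoform lines climb from 17.3 and 18.1 in the shortest class to 102 and 98.3 between 7.5 and 10 kilobases, while the input mean is highest, at 63.8, in the shortest class.

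With the isoforms the mean level was highest between 7500 and 10000 bases. With exon 5 the mean level was 66.7 ± 1.04 for the 396 members of 5000 to 7500 bases, 102 ± 5.05 for the 131 of 7500 to 10000 bases and 83.9 ± 6.86 for the 75 above 10000 bases (SD, n = 3). Without exon 5 the levels in the same classes were 64.2 ± 0.836, 98.3 ± 1.95 and 81.0 ± 5.50, and in the inputs 40.2 ± 0.0932, 55.1 ± 10.3 and 37.9 ± 4.98. In every class of members the 6 isoform libraries stood above the 3 inputs. Below the limit the order was the other way in the 2 shortest classes, where the inputs were the higher group. The 6 isoform libraries also stood above the 3 inputs in the classes of 3000 to 4000 and 4000 to 5000 bases. The mean levels with exon 5, without it and in the inputs were 49.9, 50.3 and 39.9 in the first of these. In the second they were 59.8, 59.4 and 42.2. Across the 602 members the level hardly followed length: Spearman's rho was 0.125 with exon 5, 0.113 without it and 0.0389 in the inputs, as a description of members that share the same libraries. The span of the gene on the chromosome, which includes introns and was known for 524 members, showed rho of -0.00894, -0.0485 and -0.0892. At the limit itself, the 3 members just above it were Lrp5 (5011 bases, a Wnt co-receptor), Scrib (5019 bases, a polarity scaffold) and Kif14 (5022 bases, a mitotic kinesin), with mean levels of 21.6, 125 and 19.1 with exon 5. Just below it lay 2 CDS without a name, at 4992 and 4984 bases, and Clasp1 (4978 bases), with levels of 3.51, 0 and 82.1.

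Members also differed widely among themselves. With exon 5 the level over the 602 members had a median of 50.2, a 5th percentile of 0, a 95th percentile of 230 and a highest value of 1370, and in the inputs the median was 23.4 and the highest 642. Of all member counts, 50% lay in 78 members with each isoform and in 74 in the inputs. Counts in all 6 isoform libraries were found for 498 members, counts in all 9 for 184, and 137 had no count in any input. A count in some input and in no isoform library was found for 3.

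**Figure D2:**
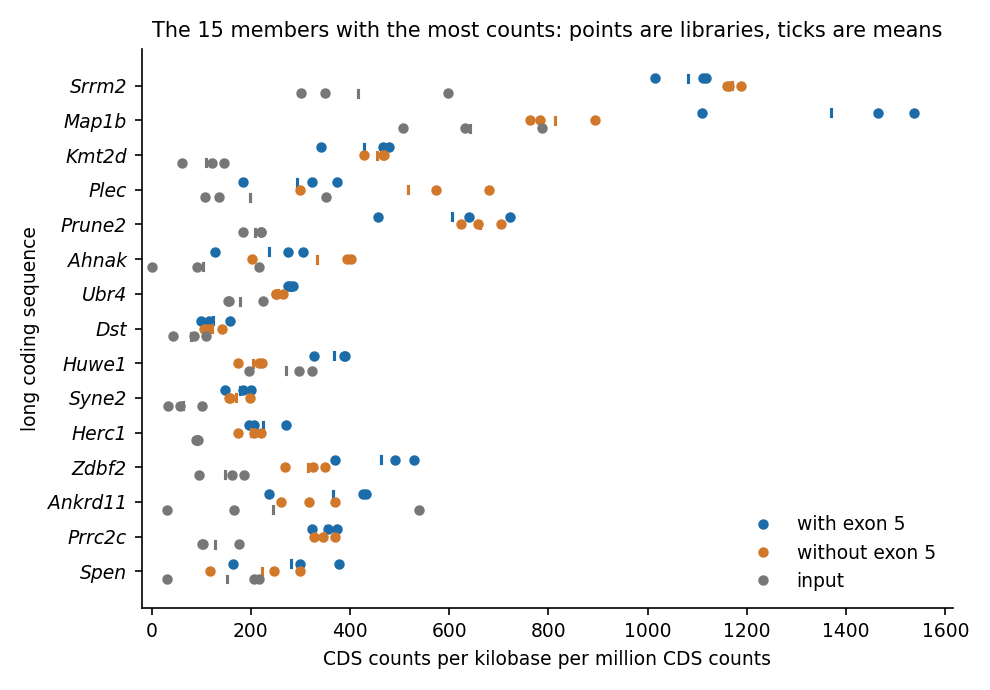
Levels (x axis, CDS counts per kilobase per 1000000 CDS counts) of the 15 members with the most counts (y axis, in order of counts); points are libraries and ticks are means of 3. Srrm2 and Map1b stand apart to the right. The inputs overlap both isoforms for Plec, Ahnak, Dst, Ankrd11 and Spen, and the libraries without exon 5 also for Map1b and Huwe1.

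For single genes the libraries were compared with edgeR's quasi-likelihood test with Benjamini-Hochberg adjustment over all 6376 CDS with enough counts, called at an adjusted p below 0.05. That filter kept 508 of the 602 members. With exon 5 over input, 156 members were higher and 0 lower; over all tested CDS 13.9% were called higher and 0.878% lower. Without exon 5, 134 members were higher and 1 lower, where 11.8% of all tested CDS were called higher and 0.439% lower. Of the CDS called higher, 631 of 885 with exon 5 and 544 of 752 without it had no count in any input and so passed the filter through the isoform libraries; among the members these were 34 of 156 and 33 of 134. The libraries of the isoform all lay above the inputs for 241 tested members with exon 5 and 244 without it, against 29.6% and 33.1% of all tested CDS. The comparisons share the inputs. Fold changes here use TMM scaling, which rests on CDS counted in both libraries and set the median log2 fold change of all tested CDS at 1.58 with exon 5 and 1.59 without it, so a member's change is read against those values. The members' median was 2.31 and 2.22, that is 0.73 and 0.63 above it. CDS without input counts, 25.5% of all tested CDS and 9.65% of the members, have only a lower bound. With these at their bounds the medians were 2.17 for members and 0.79 for all CDS with exon 5, and 2.01 and 0.81 without it.

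The number of members called depended on scaling, while the members' position above other CDS did not except under a correction for length. With library size alone the median was 1.14 for members and 0.49 for all CDS with exon 5, and 1.08 and 0.53 without it (1.00 and -0.37, then 0.85 and -0.37, with CDS lacking input counts at their bounds), but 5 members were higher in each comparison, with 0.204% of all CDS called higher in each. Lower by library size alone were 0 members and 0.282% of all CDS with exon 5, and 1 member (Naca) and 0.345% without it. Leaving out the libraries with exon 5 in turn gave 5, 1 and 1 members called over input in place of 156, and leaving out those without exon 5 gave 6, 2 and 3 in place of 135. Leaving out a library of the isoform not compared gave 52, 31 and 53 with exon 5 and 50, 51 and 50 without it, and leaving out input replicate 2 gave 321 and 309. Offsets that remove the relation of counts to CDS length within each library put the members' median at -0.72 and -0.80, and called 0 higher. Counts of called members below are those under TMM scaling, and levels, which use none, stand beside them.

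**Figure D3:**
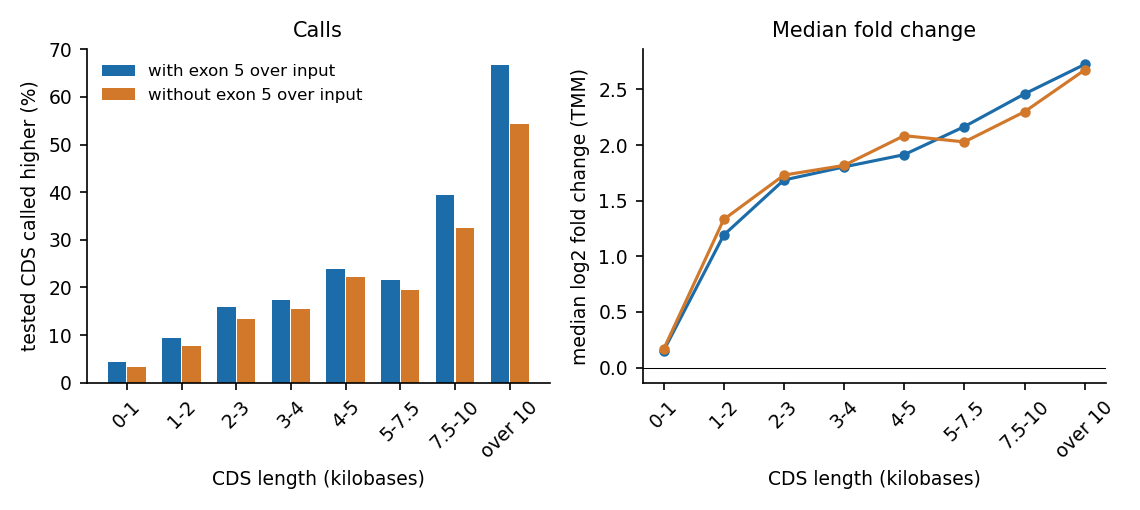
Left, percentage of tested CDS called higher over input (y axis) by CDS length in kilobases (x axis); right, median log2 fold change under TMM scaling, with all CDS at 1.58 and 1.59. The called share is 4.39% in the shortest class and 66.7% above 10 kilobases with exon 5, and 3.37% and 54.4% without it; an offset for length or library size alone ends nearly all of these calls.

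Members and other CDS were also set side by side at like total counts. Among CDS with 3000 or more counts, 48.5% of 171 members and 40.6% of 64 other CDS were higher with exon 5. Between 1000 and 3000 counts the shares were 18.7% of 203 and 17.1% of 544, and between 300 and 1000 counts 31.1% of 106 and 19.3% of 1859. Under 300 counts they were 7.14% of 28 and 7.38% of 3401. Without exon 5 the shares, from the most counts to the fewest, were 42.7%, 16.7%, 24.5% and 3.57% of members and 34.4%, 15.3%, 18.6% and 4.94% of others. The members' median log2 fold change at 3000 or more counts was 2.29 against 2.21 for others with exon 5. Without exon 5 it was 2.26 against 2.60, where the others were the higher. Between 1000 and 3000 counts the members' median was 2.22 against 1.66 with exon 5, and 2.12 against 1.74 without it. Between 300 and 1000 counts it was 2.47 against 1.48 with exon 5, and 2.31 against 1.56 without it. Under 300 counts, with 28 members tested, the members' median was also the higher with each isoform.

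Srrm2, a serine- and arginine-rich scaffold of nuclear speckles that takes part in splicing, had the most counts of any member, 40867 over the 9 libraries. Its CDS is 8159 bases long, and the gene (chromosome 17, 23790527 to 23824741, GRCm38.p6) has a 3' UTR entry of 519 bases. Its level was 1015, 1112 and 1118 with exon 5, 1161, 1187 and 1164 without it, and 301, 350 and 597 in the inputs. Every isoform library lay above every input. The log2 fold change was 2.59 (SE 0.36, edgeR adjusted p = 0.0059) with exon 5 and 2.70 (SE 0.36, edgeR adjusted p = 0.00612) without it. With library size alone it was 1.32 and 1.44, with edgeR adjusted p of 0.0583 and 0.0538.

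Kmt2d, which places methyl groups on histone H3 at enhancers, has a CDS of 16869 bases (chromosome 15). Its level was 342, 480 and 466 with exon 5, 429, 469 and 466 without it, and 62.2, 122 and 147 in the inputs, with no overlap. The log2 fold change was 3.09 (SE 0.46, edgeR adjusted p = 0.0108) and 3.17 (SE 0.46, edgeR adjusted p = 0.00612). It was also called with library size alone, at 1.90 and 1.98 (edgeR adjusted p of 0.0284 and 0.0254). Over the settings tried, Kmt2d passed in 17 of 21 with exon 5 and 20 of 21 without it, and Srrm2 in 18 and 19.

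Prune2, a large protein abundant in neural tissue, followed the same order. Its level was 457, 722 and 641 with exon 5, 624, 705 and 658 without it, and 221, 184 and 221 in the inputs. It rose by 2.71 (SE 0.41, edgeR adjusted p = 0.0108) and 2.83 (SE 0.41, edgeR adjusted p = 0.00612) on the log2 scale. Zdbf2, an imprinted gene, was at 463 ± 82.6, 315 ± 41.4 and 149 ± 46.6 (SD, n = 3) with exon 5, without it and in the inputs. Prrc2c, which binds RNA and is linked to stress granules, was at 351 ± 25.7, 347 ± 20.9 and 128 ± 42.8. Both were called higher with each isoform under TMM scaling, with log2 fold changes of 2.70 and 2.15 for Zdbf2 and of 2.46 and 2.44 for Prrc2c.

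Map1b, a microtubule-associated protein of growing axons, had the highest level of any member with exon 5. Its level was 1109, 1538 and 1465 with exon 5, 762, 894 and 783 without it, and 506, 631 and 787 in the inputs. The libraries with exon 5 stood above all others, and 2 of the 3 without it were below the highest input. Its log2 fold change over input was 2.25 (SE 0.38, edgeR adjusted p = 0.014) with exon 5 and 1.49 (SE 0.37, edgeR adjusted p = 0.0275) without it, and 1.03 and 0.28 with library size alone, where neither was called.

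Some members had levels near those of the inputs with 1 or both isoforms, while Ubr4, described beside them, lay above the inputs with both. Huwe1, a HECT-type ubiquitin ligase, was at 390, 387 and 327 with exon 5, 223, 216 and 175 without it, and 297, 196 and 323 in the inputs. It was called with exon 5 under TMM scaling (1.65, SE 0.39, edgeR adjusted p = 0.023) and not without it (0.80, SE 0.39, edgeR adjusted p = 0.159), where library size alone gave -0.47. Ubr4, a ubiquitin ligase that recognises destabilising N-termini, stood above the inputs without overlap, at 280 ± 5.29, 256 ± 8.52 and 179 ± 39.3. It was called with both isoforms under TMM scaling, at 1.79 and 1.66 (edgeR adjusted p of 0.0225 and 0.0281), and was at 0.59 and 0.46 with library size alone. Macf1, which links microtubules to actin, was at 60.3 ± 1.67, 52.2 ± 5.78 and 73.6 ± 21.3, and Dync1h1, the heavy chain of the cytoplasmic dynein motor, at 119 ± 13.6, 123 ± 9.01 and 133 ± 45.1. Neither Macf1 nor Dync1h1 was called, with log2 fold changes of 0.94 and 0.84 with exon 5 under TMM scaling and of -0.34 and -0.22 with library size alone.

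For 49 of the 508 tested members every input was at 0, and 34 of the 156 members called with exon 5 were among them. Their fold changes are bounds, computed against 3 counts in each input, without TMM scaling. Bod1l, which protects stalled replication forks, had 136, 326 and 713 raw counts with exon 5 and 173, 366 and 664 without it, and was at least 8.95-fold and 8.18-fold higher than the inputs. Ptpn23, a phosphatase-like protein of the endosome, had 271, 169 and 319 counts with exon 5 and 222, 497 and 939 without it, and was at least 6.48-fold and 11.1-fold higher. Dync2h1, the dynein heavy chain of cilia, had 320, 325 and 369 counts with exon 5 and 115, 148 and 340 without it, and was at least 8.82-fold and 4.22-fold higher. For Tulp4 the bounds were 6.80-fold and 4.28-fold, for Eif2ak4 (Gcn2, the kinase that senses uncharged tRNA) 4.53-fold and 5.07-fold, and for Scn3a, a voltage-gated sodium channel, 5.24-fold and 2.71-fold. Polq, the polymerase of theta-mediated end joining, had 2 counts in 1 input and 224 to 876 in the isoform libraries. Bod1l, Ptpn23, Polq and Kmt2d were the members called higher with both isoforms by library size alone, joined by Dync2h1 with exon 5 and Prune2 without it; Polq was named after its values were seen.

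Naca was the 1 member called lower in this fit. Naca encodes a subunit of the complex that meets new peptides at the ribosome, and its CDS of 6561 bases includes a large exon used in muscle, while its widely made form is much shorter. It had 28, 30 and 216 counts with exon 5, 8, 39 and 25 without it, and 61, 49 and 69 in the far shallower inputs. Its level was thus 17.5 ± 16.2 and 4.90 ± 3.35 (SD, n = 3) with the isoforms and 191 ± 108 in the inputs, with no overlap. The log2 fold change without exon 5 was -3.94 (SE 1.04, edgeR adjusted p = 0.0324), and with exon 5 it was -2.10 (SE 0.96, edgeR adjusted p = 0.138). All of its isoform libraries lay below its inputs, as for 6 members with exon 5 and 8 without it, where 2.85% and 2.68% of all tested CDS did so.

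By function, the counts called in each group below stand beside 30.7% of all tested members called higher with exon 5 and 26.4% without it, and 13.9% and 11.8% of all tested CDS. With library size alone at most 2 members of any group were called higher. Chromatin regulators formed the largest group, with 46 tested members. Of these, 17 were higher with exon 5 and 17 without it, 0 lower, and the median log2 fold change was 2.33 and 2.46 against 2.31 and 2.22 for all tested members (1.12 and 1.31 with library size alone). Kmt2a, a histone H3 methyltransferase, was at 209 ± 67.7, 221 ± 16.5 and 89.2 ± 86.1 with exon 5, without it and in the inputs, and Trrap, the scaffold of histone acetyltransferase complexes, at 205 ± 56.2, 226 ± 33.9 and 40.6 ± 44.0. Both were called with each isoform under TMM scaling. As a sum, the level of the group was 132 ± 6.07, 136 ± 4.48 and 49.8 ± 6.91.

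Giant ubiquitin ligases and proteases had 14 of 20 tested members higher with exon 5 and 12 without it (0 and 0 with library size alone), with medians of 2.34 and 2.35, and of 1.24 and 1.25 with library size alone. Herc1 was at 207, 272 and 197 with exon 5, 220, 208 and 175 without it, and 93.9, 89.5 and 92.0 in the inputs. Hectd4 was at 207 ± 8.95, 200 ± 15.5 and 61.3 ± 65.1. The list of zinc finger transcription factors likewise had 14 of 20 and 11 of 20 higher, with medians of 3.01 and 2.76 (1.88 and 1.60 with library size alone). That list also holds Prrc2c, the RNA-binding protein above, which was called with each isoform. Zfhx3, a homeodomain and zinc finger factor of neurons, was at 277 ± 22.4, 228 ± 66.2 and 72.5 ± 42.3, its relative Zfhx4 at 264 ± 45.7, 154 ± 13.8 and 64.6 ± 39.1, and Rai1, a nuclear regulator of transcription, at 419 ± 110, 377 ± 34.0 and 120 ± 113.

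DNA repair and replication had 7 of 13 members higher with each isoform. Rev3l, the catalytic subunit of polymerase zeta, was at 253, 305 and 279 with exon 5, 177, 195 and 197 without it, and 21.9, 74.6 and 239 in the inputs, where 1 input overlapped the isoform libraries without exon 5. Nuclear speckle, splicing and transcription genes had 8 and 5 of 23 higher. Among them Son, a speckle protein like Srrm2, was at 326 ± 69.0, 210 ± 47.7 and 175 ± 140, and was called with exon 5 only (edgeR adjusted p of 0.0266 and 0.063); the difference between these calls is covered by the comparison of the isoforms below. Ion channels had 7 and 5 of 17 higher, with Cacna1g, a T-type calcium channel, at 99.3 ± 22.2, 109 ± 19.3 and 6.30 ± 10.9, while Piezo1, a mechanically gated channel, was at 120 ± 14.9, 119 ± 14.4 and 191 ± 189 and was not called.

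The cytolinkers, spectrins and ankyrins had 5 and 4 of 19 higher, with medians of 1.53 and 1.74, and of 0.43 and 0.53 with library size alone and the genes without input counts at their bounds. Dst, among the longest named CDS with 30308 bases, was at 98.7, 116 and 158 with exon 5, 114, 106 and 142 without it, and 43.3, 86.5 and 111 in the inputs, so the groups overlapped. Syne2, a nuclear envelope linker, was at 178 ± 27.6, 171 ± 23.9 and 63.4 ± 34.7, with no overlap. Ahnak, a very large scaffold under the membrane, was at 129, 276 and 306 with exon 5, 203, 402 and 393 without it, and 216, 92.5 and 0 in the inputs; it had no count in input replicate 3 and was not called. Microtubule-associated proteins had 3 and 2 of 10 higher, motors 5 and 4 of 15, adhesion proteins and large receptors 6 and 6 of 24, neuronal scaffolds and signalling 9 and 8 of 27, and vesicle and lipid transfer 6 and 6 of 22. The last of these lists also holds Bptf, a chromatin regulator, which was not called. In these groups Celsr3, an adhesion receptor that guides axons, was at 157, 142 and 167 with exon 5, 165, 163 and 145 without it, and 7.55, 23.5 and 0 in the inputs. Unc13a, which primes synaptic vesicles, was at 301 ± 88.1, 257 ± 41.8 and 112 ± 101, Vps13d, a lipid transfer protein, at 118 ± 18.9, 119 ± 6.01 and 31.2 ± 29.4, and Lyst, a lysosome regulator, at 205 ± 12.3, 222 ± 2.22 and 66.5 ± 75.3. All 4 were called with each isoform under TMM scaling.

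Nuclear pore and transport genes had the lowest median of the 16 groups, 0.98 and 1.11, which is -0.31 and -0.18 with library size alone; 1 of 8 was higher with exon 5 and 0 without it. Ranbp2, the filament protein of the pore, was at 322, 325 and 382 with exon 5, 197, 262 and 243 without it, and 272, 152 and 366 in the inputs. Nup210, a membrane ring protein of the pore, was at 123 ± 19.2, 94.1 ± 15.9 and 116 ± 63.4. The phosphatidylinositol 3-kinase-related kinases had 3 and 2 of 8 higher. Among them Atr, which responds to stalled replication, was at 95.5 ± 7.73, 145 ± 19.6 and 335 ± 484, with 1 input at 894 and the others at 52.0 and 59.0. Its log2 fold change of -0.25 with exon 5 was 1.70 without input replicate 3. Centrosome, cilium and kinetochore genes had 3 and 3 of 20 higher. Cenpf, of the outer kinetochore, was at 148 ± 37.2, 136 ± 18.0 and 50.2 ± 28.5, and Mki67, which coats mitotic chromosomes, at 132, 225 and 274, at 207, 287 and 256, and at 122, 270 and 737 in the inputs, so that its groups overlapped. Of 6 tested members listed as large genes of other cell types, 4 and 2 were higher. Among them Myh3, an embryonic muscle myosin, had 31 to 181 counts with exon 5, 61 to 293 without it and 0 in all inputs. The summed level of the group was 9.68 ± 1.10, 5.94 ± 0.42 and 0.79 ± 1.36.

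With exon 5 against without it, no member passed: edgeR called 0 of 508 members and 0 of 6376 CDS, as did DESeq2 and limma-voom, and at an unadjusted p below 0.05 there were 4 members and 82 CDS in all. The median log2 fold change of the members was 0.09, and 91.7% lay within 1 of 0, with a 5th percentile of -0.80 and a 95th of 1.04. Member levels with and without exon 5 followed each other closely, with r = 0.932 and rho = 0.962 on the log2 scale over 602 members, each a mean of 3 libraries. The median standard error of a member's log2 fold change was 0.97, which sets how small a difference this fit could show for most members. It comes from the fit of all 9 libraries, whose estimate of the spread includes the inputs. For Srrm2, the member with the most counts, it was 0.34. Libraries did not overlap for 67 members higher with exon 5 and 44 higher without it, against 6.71% and 7.14% of all tested CDS.

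**Figure D4:**
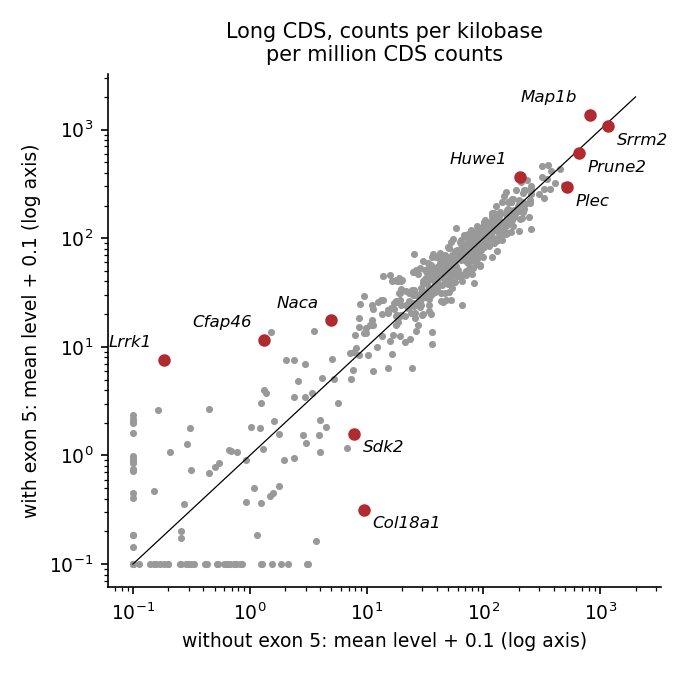
Mean level of each of the 602 members without exon 5 (x axis) and with exon 5 (y axis), in CDS counts per kilobase per 1000000 CDS counts plus 0.1, on log axes; the line marks equal levels and named points are described in the text. Points lie along the line, and those farthest from it, such as Lrrk1 and Col18a1, have levels below 10.

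Map1b and Huwe1 were among the members with non-overlapping libraries. The log2 fold change with over without exon 5 was 0.75 (SE 0.37) for Map1b and 0.85 (SE 0.38) for Huwe1, with an edgeR adjusted p of 1 for both. Plec, a cytolinker of intermediate filaments, leaned the other way, at 184, 374 and 323 with exon 5 and 299, 574 and 679 without it, a log2 fold change of -0.83 (SE 0.46, edgeR adjusted p = 1) with overlapping libraries. The largest fold changes belonged to members with few counts. Lrrk1, a kinase of the LRRK family, had 14, 51 and 20 counts with exon 5 and 0, 0 and 2 without it, and Cfap46, a cilium protein, 44, 55 and 87 and then 0, 12 and 15. In the other direction Col18a1, a basement membrane collagen, had 0, 2 and 0 counts with exon 5 and 27, 44 and 27 without it, and Sdk2, a synaptic adhesion protein, 3, 5 and 14 and then 25, 22 and 80. The authors' deposited table puts 493 members in a class by their CDS, 461 (93.5%) as BOTH, 23 (4.67%) as pEX5, the side with exon 5, and 9 (1.83%) as mEX5, the side without it; over all 4532 classed CDS of that table the shares were 84.3%, 7.41% and 8.32%. Its class name refers to a log2 fold change of 1 in the same direction in all replicates. In the authors' deposited table the fold changes reached 5.92 for Lrrk1 and -5.49 for Col18a1. In the fit here none of the 32 members that the authors' deposited table puts on 1 side was called.

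The 3' untranslated regions (3' UTRs) of the same genes, which the length rule did not use, differed from those of other genes in a like way. Both parts had a length for 422 members and 10127 other counted genes. Per kilobase and per 1000000 counts of all gene parts, the members' 3' UTRs were at 33.9 ± 2.39 with exon 5, 32.3 ± 0.881 without it and 23.0 ± 0.653 in the inputs (SD, n = 3), and those of the other genes at 14.4 ± 0.826, 14.1 ± 0.684 and 25.0 ± 0.474. Members over others was thus 2.36 ± 0.198, 2.30 ± 0.137 and 0.920 ± 0.0109 in the 3' UTR, beside 2.27 ± 0.116, 2.13 ± 0.0882 and 1.10 ± 0.0807 in the CDS of the same genes. Of 251 members tested on their 3' UTR counts, 55 were higher with exon 5, where 10.1% of all 3' UTRs were called higher, and 65 without it, where 12.3% were (edgeR). Lower were 1 of them with exon 5 and 0 without it, where 0.582% and 0.381% of all 3' UTRs were.

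**Figure D5:**
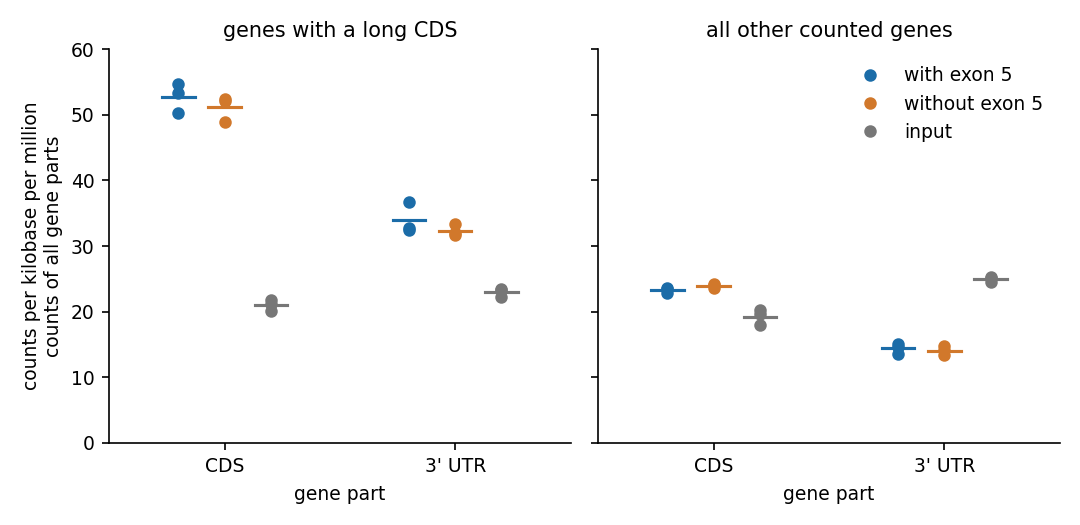
Counts per kilobase per 1000000 counts of all gene parts (y axis) in the CDS and the 3' UTR (x axis) of the 422 genes with a long CDS and a 3' UTR length (left) and of 10127 other counted genes (right); points are libraries and bars are means of 3. In genes with a long CDS both parts lie above the inputs with each isoform, while in the other genes the 3' UTR lies below them.

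Summed over genes, CDS over 3' UTR was higher with the isoforms than in the inputs for members and others alike. The ratio of these summed per-base levels was 1.56 ± 0.109, 1.58 ± 0.0486 and 0.916 ± 0.0596 (SD, n = 3) for the members with exon 5, without it and in the inputs, and 1.62 ± 0.101, 1.71 ± 0.0916 and 0.771 ± 0.0609 for the other genes. Gene by gene, CDS use was the log fold change of the CDS relative to that of CDS and 3' UTR together. It compares both isoforms with input and is not the ratio above. It lies near 0 where most counts are in the CDS. The CDS held 89.5% and 89.6% of member gene counts with the isoforms and 83.4% in the inputs. These shares are over all 602 members, 180 of which have no 3' UTR length, and not over the members tested for CDS use alone. The median of CDS use was 0.02 for 253 tested members, with 51.4% above 0. For 3784 other genes it was 0.13, with 55.3% above 0. Of the members tested for CDS use, 1 was called, where 0.272% of all 4037 genes were called higher. It was Shprh, a helicase and ubiquitin ligase of the tolerance to DNA damage, with an edgeR adjusted p of 0.0133. Its CDS had 106 to 250 counts in the isoform libraries and 0 in every input, so that none of its input counts lay in the CDS, against 85.9% of its isoform counts. Celsr2, a relative of Celsr3, came next and was not called (edgeR adjusted p = 0.0885). Map4, a microtubule-associated protein, had 61.2% of its isoform counts and 79.7% of its input counts in the CDS, and was not called either (edgeR adjusted p = 0.999).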

How the data were processed

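Counts of iCLIP reads per gene over CDS, 3' UTR, 5' UTR and all parts together were deposited by the authors as raw counts for 3 libraries with exon 5, 3 without it and 3 inputs, with a deposited table of part lengths in bases. Per the submitters' processing notes, TopHat2 and DESeq2 were used with the build mm10; the counting of reads, the collapsing of duplicates and the use of strand are each not given in the sources used here. A deposited table of normalized signal holds, per the file headers, DESeq2-normalized values per isoform library and the authors' log2 fold changes with over without exon 5; its classes and CDS log2 fold changes were copied, and 21 of its per-sample columns were not used. The members and gene lists were chosen with earlier results of these data known. The CDS length is the deposited one, a multiple of 3 for 76.8% of CDS in the table and 65.1% of members, so it need not be the length of 1 reading frame. Symbols are those of the deposited tables; 524 named members matched 1 RefSeq entry (GRCm38.p6), used for gene spans.

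CDS were tested with edgeR 4.0.16 in R 4.3.3 (quasi-likelihood, robust, 1 fit of all 9 libraries, TMM, filterByExpr at its limits of 10 counts per library and 15 in total, Benjamini-Hochberg over all 6376 CDS, threshold 0.05), and CDS against 3' UTR within genes with diffSpliceDGE. The scripts were tested on simulated data. TMM factors were 0.70 to 0.79 for the isoforms and 1.90, 1.20 and 2.47 for the inputs. Levels were planned with TMM factors and are given per 1000000 CDS counts without them. Alternatives used DESeq2 1.42.0, limma 3.58.1 (voom), other scalings, filters, lengths and thinned counts, and left out each library. Named were the 15 members with the most counts, up to 10 of largest change in each direction among calls whose groups did not overlap and with a mean of 10 or more counts, the 3 of smallest p in each direction between isoforms, the 5 of smallest p in each direction for CDS use, the 5 longest where named, those next to the length limit, and up to 4 with the most counts in each list, from which the text takes examples; 1 named member is not reported here. Same-numbered libraries did not deviate together (correlations of -0.0234 to 0.0230), so the numbers were not taken as pairs. The file headers number 2 of the inputs otherwise than the titles do; the titles were followed.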

Additional observations from a re-analysis of the deposited data

How the results depend on the processing

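The comparison of the isoforms called 0 members in all alternatives run. In place of 156 members called with exon 5 over input and 135 without it, DESeq2 size factors gave 9 and 7 and library size alone 5 and 6. Length offsets gave 0 and 1, and fits of only the groups compared 0 and 3. Thinned counts gave 32 and 31, with 366 members tested. A test of another gene part, 3' UTR counts of the same genes, chosen after seeing the data, gave 56 and 65 of 251 members. Limma-voom gave 212 without exon 5, and a limit of 4000 bases, which takes in more CDS as members, 208. Leaving out each library gave 1 to 321 with exon 5, 2 to 309 without it, and 0 to 2 in place of 1 for CDS use, which was 0 with a limit of 6000 bases. Length offsets remove the relation to length by construction, and the cause of the other moves was not tested.

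With a replicate block the calls were 105 and 94, and 0 for CDS use; with the input numbers of the file headers, chosen after seeing the data, 94 and 85.

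The share of CDS counts in members with exon 5, without it and in the inputs was 46.7%, 45.3% and 27.0% for a limit of 4000 bases, 28.9%, 27.5% and 14.7% for 6000 bases, 33.0%, 31.6% and 17.8% without the 10 members with the most counts, and 24.8%, 24.0% and 9.33% of the counts of all gene parts. Leaving out each library kept it within 36.3% to 37.7%, 35.1% to 35.9% and 19.1% to 20.7%. Members over others per base was 2.50, 2.70 and 0.462 as a ratio of medians over CDS with a count, and with each library left out 2.25 to 2.39, 2.14 to 2.21 and 0.930 to 1.03.

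Length offsets turned the sign of these log2 fold changes, with exon 5 and without it: Srrm2 -0.80 and -0.60, Map1b -0.99 and -1.67, Kmt2d -0.39 and -0.13, Plec -1.89 and -0.91, Prune2 -0.65 and -0.42, Ubr4 -1.65 and -1.63, Dst -1.91 and -1.70, Syne2 -0.95 and -0.81, Herc1 -0.99 and -1.01, Zdbf2 -0.38 and -0.85, Prrc2c -0.57 and -0.50, Zfhx3 -0.26 and -0.41, Hectd4 -0.66 and -0.58, Kmt2a -1.24 and -1.02, Lyst -0.67 and -0.43, Zfhx4 -0.20 and -0.85, Rai1 -0.18 and -0.29, Rev3l -0.99 and -1.45, Vps13d -0.40 and -0.26, Unc13a -0.55 and -0.76, and Cenpf -0.59 and -0.60. With exon 5 alone they gave -1.89 for Huwe1, -1.88 for Ranbp2 and -1.34 for Son. Atr turned to 1.70 with exon 5 without input replicate 3. The inputs' depth, at most 81283 CDS counts, limits every comparison with them.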

Other observations

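The members were also divided by the span of their genes on the chromosome. The 175 of shortest span, up to 66711 bases, had levels of 83.8, 93.4 and 93.5 with exon 5, 88.7, 96.1 and 94.6 without it and 46.9, 50.4 and 65.3 in the inputs. The 174 of middle span had 98.3, 107 and 106, then 95.3, 100.2 and 99.9, and 57.3, 51.5 and 52.6. The 175 of longest span, from 133668 bases, had 85.4, 88.9 and 88.3, then 79.8, 80.5 and 80.6, and 45.6, 39.8 and 49.8. In each class all 6 isoform libraries lay above the inputs.

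The spread between libraries was also measured per member. Among members with a mean of 100 or more counts, the median coefficient of variation was 21.9% over 435 members with exon 5 and 17.8% over 431 without it. In the inputs only 16 members reached that mean, with a median of 38.8%.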
